A study of Mus musculus with 12 samples.

Results

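The expression profile described here is that of resting wild-type BMDCs, the dendritic cells that form when mouse marrow is kept in GM-CSF, here for 6 days and with no LPS. It rests on the 3 libraries labelled WT, of 12 in the series, which were chosen by their labels (genotype CreER, treatment none). The WT mice were C57BL/6 animals that carry a tamoxifen-activated Cre recombinase (CreER, placed at the Rosa26 locus) and no floxed Ctcf allele, and the methods give an age of 8 to 12 weeks and both sexes. Hydroxytamoxifen was put into the cultures on the first day to delete Ctcf in the floxed genotype, and the sources used here do not make clear whether the WT cultures received it too. Per the methods, cells in suspension were collected and those carrying CD11c were kept on magnetic beads. The other 9 libraries (WT with LPS, and CTCF-deficient cells with and without LPS) were not used, and no groups were compared.

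GM-CSF binds a receptor made of a specific alpha chain (Csf2ra) and a shared beta chain (Csf2rb), and signals mainly through the kinase JAK2 and the transcription factor STAT5. In cultures of bone marrow it carries myeloid precursors into cells with features of dendritic cells and of macrophages, which take up antigen, load it onto MHC class II molecules and, once mature, move toward lymph nodes with the chemokine receptor CCR7. Such cultures are known to be mixtures, and neutrophil precursors and other bone marrow cells can persist in them. A bulk library averages over all cells present, so that fewer cells of a type and less RNA per cell of that type cannot be told apart.

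The 4 markers of these cultures were looked at first. The cells were selected on CD11c and the markers are not confined to dendritic cells, so their presence does not settle the labelled cell type. All values are TPM (RSEM's length-corrected transcript level, scaled to the same total in each library), given for WT replicates 1, 2 and 3. Itgax, which encodes CD11c, the integrin used to select the cells, had 374, 356 and 368 TPM. Itgam, which encodes CD11b, had 207, 208 and 212 TPM. Cd74, the invariant chain that accompanies MHC class II molecules, had 5219.9, 5259 and 4915 TPM. Csf2rb, the beta chain of the GM-CSF receptor, had 962, 1202 and 1221 TPM. All 4 markers were present in every library, and the replicates lay close together except for Csf2rb, whose TPM was lowest in replicate 1. Its expected counts, 28531, 33078 and 31969, did not differ in that way: the CV (SD as a percent of the mean) was 12.8% in TPM and 2.16% in counts scaled to library size (CPM), and the effective length estimated for the gene was 2654, 2193 and 2139 bases. Itgam shares its locus with the annotated gene Gm49368 on the same strand, so its reads are less certain. On the level per length, Itgax stood at 1.75 ± 0.050 (SD, n = 3) times Itgam.

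The upstream sequences of genes that carry this profile are shown for orientation, from RefSeq on GRCm38.p6, each written 5′ to 3′ on the strand of the gene. They hold the 250 bases before the annotated start. H2-Aa and H2-Eb1 encode MHC class II chains, Itgam and Itgax the marker integrins, Lyz2 the most abundant nuclear-encoded RNA, and Ccl17 the most abundant chemokine. Capitals mark 2 motifs searched on both strands. The first is CTGATTGG, the Y box of MHC class II promoters with its inverted CCAAT. The second is AGGAAG, a purine-rich core that ETS factors such as PU.1 bind. Neither motif contains the other.
H2-Aa (chr17:34287824-34288073, minus strand): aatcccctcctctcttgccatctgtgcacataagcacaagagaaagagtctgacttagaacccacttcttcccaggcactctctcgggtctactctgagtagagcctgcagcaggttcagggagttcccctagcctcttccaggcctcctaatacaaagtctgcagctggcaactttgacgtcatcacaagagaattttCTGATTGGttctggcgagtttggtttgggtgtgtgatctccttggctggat
H2-Eb1 (chr17:34305617-34305866, plus strand): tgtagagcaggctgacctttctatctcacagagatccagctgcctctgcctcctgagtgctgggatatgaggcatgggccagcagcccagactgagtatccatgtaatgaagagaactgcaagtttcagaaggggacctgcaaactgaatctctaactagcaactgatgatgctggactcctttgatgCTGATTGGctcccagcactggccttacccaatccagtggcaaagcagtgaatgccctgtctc
Itgam (chr7:128062390-128062639, plus strand): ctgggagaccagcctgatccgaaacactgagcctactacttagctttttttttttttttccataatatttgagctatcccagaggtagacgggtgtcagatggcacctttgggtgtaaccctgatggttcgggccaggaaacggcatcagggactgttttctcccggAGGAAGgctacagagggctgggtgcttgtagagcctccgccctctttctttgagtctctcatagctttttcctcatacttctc
Itgax (chr7:128129300-128129549, plus strand): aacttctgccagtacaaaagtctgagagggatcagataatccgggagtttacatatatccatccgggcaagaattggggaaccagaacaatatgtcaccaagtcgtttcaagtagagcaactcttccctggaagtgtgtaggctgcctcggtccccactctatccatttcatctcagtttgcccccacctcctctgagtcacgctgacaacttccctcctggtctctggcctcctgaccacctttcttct
Lyz2 (chr10:117282273-117282522, minus strand): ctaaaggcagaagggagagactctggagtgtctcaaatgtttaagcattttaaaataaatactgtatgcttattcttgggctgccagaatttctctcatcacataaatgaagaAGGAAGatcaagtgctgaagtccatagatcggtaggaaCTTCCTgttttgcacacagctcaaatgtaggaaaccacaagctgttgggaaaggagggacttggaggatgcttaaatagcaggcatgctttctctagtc
Ccl17 (chr8:94810203-94810452, plus strand): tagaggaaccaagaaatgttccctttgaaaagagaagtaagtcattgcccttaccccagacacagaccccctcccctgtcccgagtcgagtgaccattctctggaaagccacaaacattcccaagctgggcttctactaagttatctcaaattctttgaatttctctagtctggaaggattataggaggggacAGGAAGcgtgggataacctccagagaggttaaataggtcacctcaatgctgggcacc
Both MHC class II windows held CTGATTGG once, starting 51 bases before the start of H2-Aa and 62 bases before that of H2-Eb1, and the other 4 windows did not hold it. Of all 32851 windows of that length, 3.83% held it. The core AGGAAG occurred once in the window of Itgam, 2 times in that of Lyz2 and once in that of Ccl17, and 29.5% of all windows held it. A match of letters is a description of the window and was not linked to binding.

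RNA from the 3 cultures gave total expected counts of 13058792, 14518230 and 14189774. An expected count is RSEM's estimate of the reads of a gene, with ambiguous reads split between the genes they match. Of 55335 annotated genes, 11824 had a TPM of at least 1 in all 3 libraries, 21.4% of the total. They included 10660 of 21899 protein-coding genes (48.7%). Fewer genes were strongly expressed: 7547 had a mean TPM of at least 10, 1193 had at least 100, and 152 had at least 1000. At this depth, 3 counts, the upper limit that a count of 0 allows, came to 0.126 TPM for a gene of the median effective length of detected genes, 1994 bases. The methods describe the 3 libraries of a condition as biological replicates. The labels name no culture or animal for each replicate, so the SDs cover only the spread between these libraries.

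A few genes held much of the RNA. The 10 most abundant genes took 17.1% of all TPM, the first 30 took 26.8%, the first 100 took 44.0% and the first 1000 took 74.9%. Among the 100 most abundant, 43 encoded ribosomal proteins. The 86 genes of the cytosolic ribosome together took 16% ± 0.49 (SD, n = 3) of TPM, but only 5.79% ± 0.27 of the counts. These transcripts are short, and TPM corrects for length. The ranking by TPM and that by counts shared 16 of their first 30 genes.

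Among genes encoded in the nucleus, Lyz2, which encodes the lysozyme of macrophages and other myeloid cells, ranked first. Lyz2 (ENSMUSG00000069516.8) lies on chromosome 10 from 117277331 to 117282321 of mm10, and had 24214, 25598 and 26302 TPM, and it also ranked first by counts with 2.38% of them. Its paralog Lyz1 is 96.0% identical over 1262 aligned transcript bases, so that reads could be divided between them, and had 5.43, 6.38 and 6.35 TPM. Tmsb4x, which encodes thymosin beta-4, a protein that sequesters actin monomers, followed with 19381, 17223 and 17533 TPM. The subunits of ferritin, the iron store of the cell, were close behind, with 15088, 15764 and 15039 TPM for Ftl1 and 7568, 7634 and 6854 TPM for Fth1. The calcium-binding S100a4 had 10373, 9683 and 9475 TPM, and S100a11 of the same family had 4769, 5170.5 and 5212 TPM. The ranges of Lyz2, Tmsb4x and Ftl1 did not overlap, so their order was the same in every library.

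Genes of antigen-presenting and myeloid cells followed in the ranking. Ccl17 (ENSMUSG00000031780.2), a chemokine that attracts T cells carrying CCR4, lies on chromosome 8 from 94810453 to 94812036 and had 5900.1, 6026 and 5970.5 TPM. It was the highest of the 40 listed mediators, and the spread between replicates was 1.06% of the mean. Cd74 stood at 5132 ± 188 (SD, n = 3) and the cysteine protease inhibitor Cst3, a known dendritic cell gene, at 4635 ± 357. Psap, the precursor of the lysosomal saposins, had 4104, 4310.0 and 4100.4 TPM and was among the first 10 genes by counts. The chemokine Ccl6 had 4129, 3842 and 3878 TPM, the secreted protein Wfdc17 had 3881, 3708 and 3864 TPM, and Cd52, a small surface glycoprotein of leukocytes, had 4790.0, 4228 and 4183 TPM. H2-Aa, an MHC class II alpha chain, stood at 3519 ± 58, within the range of B2m (3613, 3506 and 3518 TPM), the light chain of MHC class I. Mmp12, the elastase of macrophages, had 2682, 2575 and 2646 TPM, and the lysosomal protease Ctss, which trims the invariant chain, had 2829.9, 2679 and 2719 TPM.

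**Figure D1:**
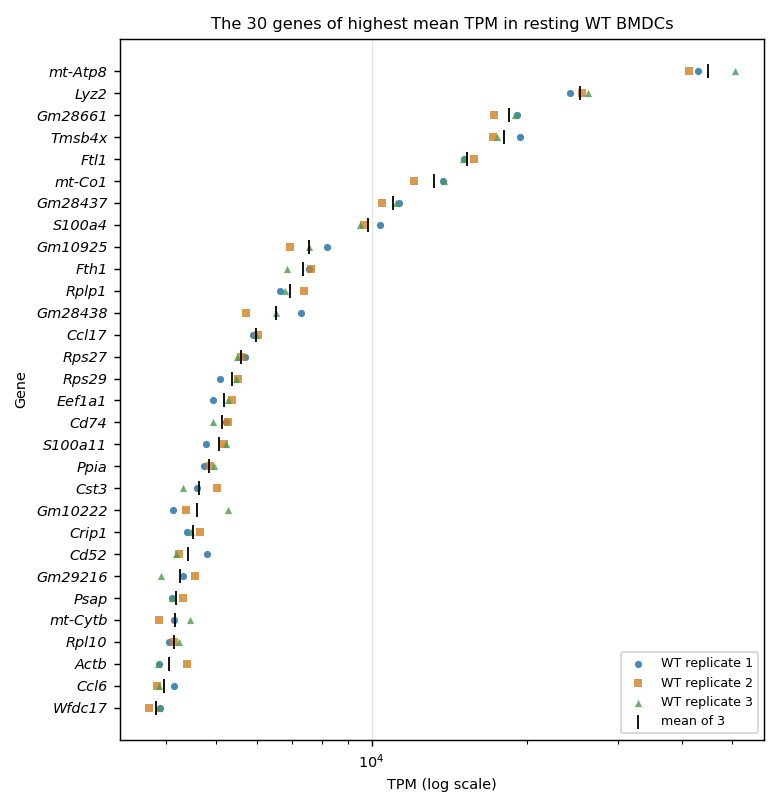
TPM (log scale) of the 30 genes of highest mean in WT replicates 1, 2 and 3, with the mean as a bar. The highest, mt-Atp8, has a mean of 45005 TPM; it and 6 pseudogenes of mitochondrial sequence stand among nuclear genes such as Lyz2 and Tmsb4x.

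Mitochondrial RNA held several of the first places, and these values need care. The gene of highest TPM was mt-Atp8, a subunit of the ATP synthase, with 43032, 41282 and 50701 TPM. Its effective length, the transcript length after allowing for fragment size, averaged only 28.1 bases, so that 0.11% of the counts became 4.5% of TPM. In addition, 6 of the first 30 genes were annotated pseudogenes, each 99.7% to 100% identical to a mitochondrial transcript over its aligned length. Gm28661, identical to mt-Co2 over 681 bases, had 19121, 17239.6 and 18959 TPM, whereas mt-Co2 itself was given 103, 129 and 0 TPM. Gm28437, identical to mt-Co3, had 11319.6, 10479 and 11156 TPM and mt-Co3 had 219, 129 and 238 TPM. RSEM cannot separate such copies, so the values of each member of a pair are uncertain. The 37 mitochondrial genes and the 6 pseudogenes together took 12.9% ± 0.89 (SD, n = 3) of TPM and 4.66% ± 0.32 of the counts.

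Of the 16 genes listed for dendritic cells in general, 15 had a mean TPM of at least 1, compared with 49.8% of all protein-coding genes. At least 100 was reached by 9 of them (5.15% of all). The list is not confined to genes that only these cells express: it holds Cd74 and MHC class II chains. It summed to 14846, 14883 and 14116 TPM, of which Cd74 made up 35.1%. Cd74 was the highest of the list, followed by the class II chain H2-Aa. H2-Eb1 had 2252, 2219 and 2019 TPM and H2-Ab1 had 1782, 1812 and 1636 TPM, so the alpha chain H2-Aa stood at 2.02 ± 0.11 (SD, n = 3) times the beta chain that pairs with it. Ciita, the coactivator that switches on MHC class II genes, had 42.4, 45.7 and 49.3 TPM. Cd74 and the classical and nonclassical class II chains, 10 genes in all, were all detected and summed to 1.32% ± 0.043 (SD, n = 3) of TPM.

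The other genes of the general dendritic cell list spread over several orders of magnitude. Id2, an inhibitor of helix-loop-helix factors needed by dendritic cells, had 667, 619.7 and 631 TPM, and Sirpa, a receptor for CD47, had 349.5, 313 and 302 TPM. Zbtb46, a transcription factor that marks conventional dendritic cells, was much lower, with 16.5, 14.6 and 15.4 TPM. Itgax was 23.6 ± 0.82 (SD, n = 3) times as high as Zbtb46. Flt3, the receptor CD135 of dendritic cell precursors, had only 3.64, 3.57 and 3.73 TPM, and Btla, an inhibitory receptor, was the lowest of the list with 0.59, 0.71 and 1.1 TPM. Of the 15 pairs of neighbours in the order of this list, only 1 overlapped between replicates, so the order was nearly the same in each library.

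Markers of the cDC1 subset, which cross-presents antigen, were divided. The transcription factor Irf8 had 60.1, 60.5 and 59.3 TPM and Batf3 had 59.6, 56.6 and 51.6 TPM, and their ranges overlapped. Irf8 shares its locus with the annotated gene Gm20388 on the same strand. The surface receptors that define cDC1 were low: Clec9a, a receptor for dead cells, had 7.27, 5.83 and 5.45 TPM and Xcr1, the receptor for the chemokine XCL1, had 0.83, 0.51 and 0.96 TPM. Cadm1, an adhesion molecule of this subset, had 0.28, 0.33 and 0.50 TPM. In all, 6 of 10 cDC1 genes had a mean TPM of at least 1, near the share of all protein-coding genes (49.8%), and none had 100.

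All 11 markers of cDC2 and monocyte-derived cells had a mean TPM of at least 1 (all protein-coding genes: 49.8%). After Ccl17, the lectin Mgl2 was highest with 436, 389.5 and 402 TPM, while its neighbour Clec10a, 96.7% identical over 704 aligned bases, had 17.1, 19.5 and 19 TPM. Irf4, a transcription factor of cDC2, had 26.2, 24.5 and 26.2 TPM, and Irf8 was 2.34 ± 0.11 (SD, n = 3) times as high. Cd209a, the mouse DC-SIGN often used to mark monocyte-derived dendritic cells, had 9.12, 9.69 and 8.08 TPM. Langerin, encoded by Cd207, had 10.8, 11.2 and 9.7 TPM, and the adhesion molecule Epcam had 3.51, 3.47 and 3.26 TPM.

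Genes of mature dendritic cells were present without LPS. All 16 of the list had a mean TPM of at least 1 (all protein-coding genes: 49.8%) and 8 had at least 100 (all: 5.15%). Ccl22, which shares the receptor CCR4 with CCL17, had 1280.0, 1173 and 1102 TPM, and Ccl17 stood at 5.05 ± 0.41 (SD, n = 3) times its level. Ccr7, the receptor that guides dendritic cells to lymph nodes, had 309, 321 and 329 TPM. The actin-bundling protein fascin, encoded by Fscn1, had 126, 140.5 and 135 TPM, and Cd83 had 129, 127 and 129 TPM. The costimulatory ligand Cd86 had 71.5, 66.7 and 74.8 TPM and Cd80 had 55.4, 52.2 and 51 TPM, and the checkpoint ligand Cd274, which encodes PD-L1, had 116, 114 and 123 TPM. Cd40 had 68.2, 73.2 and 57.4 TPM and was lowest in replicate 3. Il12b, the subunit shared by IL-12 and IL-23, was the lowest of the list, with 6.62, 6.35 and 6.91 TPM.

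Of the 10 genes of plasmacytoid dendritic cells, 5 had a mean TPM of at least 1, a share close to that of all protein-coding genes (49.8%). Siglech, a receptor that defines these cells, had 0.15, 0.13 and 0.04 TPM, Ccr9 had 0.56, 0.60 and 0.45 TPM, and Klk1 had no count in any library. Bst2, with 198, 201 and 189 TPM, is also an interferon-induced gene of other cells and made up 87.9% of the summed level of the list. The transcription factor Tcf4, which specifies this lineage, had 6.94, 7.92 and 8.79 TPM. Of the list, 3 genes were at the floor, that is, at no more than 3 counts in each library, as were 40.7% of all protein-coding genes.

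Most macrophage genes were also expressed. Of 23, 18 had a mean TPM of at least 1 (all protein-coding genes: 49.8%). The list summed to 26153, 27644 and 28261 TPM, of which Lyz2 made up 92.8%. Cd68, a protein of endosomes and lysosomes, had 458, 486 and 448 TPM, and Gpnmb, a glycoprotein of lipid-loaded and late-stage macrophages, had 392, 379.6 and 389 TPM. Csf1r, the receptor CD115 for M-CSF, had 342, 369 and 340.4 TPM, 96.3 ± 6.39 (SD, n = 3) times the level of Flt3. Adgre1, which encodes F4/80, had 92.1, 105 and 101 TPM, and Mrc1, the mannose receptor, had 107, 100.0 and 104 TPM. The lipid receptor Trem2 had 158, 170.2 and 177 TPM.

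Other members of the macrophage list (median of the list 14.3 TPM) were lower than these. Mertk, a receptor for apoptotic cells, had 13.8, 13.7 and 13.8 TPM. The high-affinity Fc receptor Fcgr1, which encodes CD64, had 3.68, 5.34 and 3.92 TPM. C1qb, C1qc and C1qa, the chains of complement C1q, were unequal, with means of 44.4, 14.3 and 7.78 TPM. Apoe, usually abundant in macrophages, had 14.8, 17.7 and 13.9 TPM. Timd4, Vsig4, Folr2 and Lyve1, markers of embryo-derived resident macrophages, were all at the floor, with at most 0.14 TPM in any library.

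Of 17 genes of alveolar macrophages, cells that GM-CSF maintains in the lung, 14 had a mean TPM of at least 1 (all protein-coding genes: 49.8%). The median of the list was 79.1 TPM. Fabp5, a carrier of fatty acids, had 1514, 1665 and 1720.1 TPM, lipoprotein lipase (Lpl) had 915, 823 and 824 TPM, and the chitinase-like protein Chil3 had 644, 625 and 652 TPM. The ribonuclease Ear2 had 1272, 1217 and 1208 TPM. Its neighbour Ear1 is 96.9% identical over 713 bases, which leaves the division of their reads uncertain, and had 33.8, 30.6 and 37.8 TPM. The scavenger receptor Marco had 119.8, 120.2 and 101 TPM, and carbonic anhydrase 4 (Car4) had 87.8, 89.2 and 85 TPM. Pparg, the nuclear receptor that directs this program in the lung, had 12.3, 11.4 and 12.8 TPM and Siglecf had 10.9, 12.9 and 10.4 TPM. Not every gene of the program was present: Krt79, Krt19 and Cidec each stayed below 1 TPM in every library.

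Monocyte genes were moderately expressed. Fn1, which encodes fibronectin, had 429, 429 and 419.7 TPM, and Ccr2, which draws monocytes from the marrow, had 199, 167 and 177 TPM. Ly6c2, the classical monocyte antigen, had 66.1, 73.1 and 71.3 TPM, whereas Ly6c1, 98.3% identical over 595 aligned bases, had 0, 0.15 and 0 TPM. Plac8 had 1.6, 1.86 and 1.42 TPM. Genes of multinucleated osteoclasts, which form from myeloid precursors, were mixed. The fusion receptor Dcstamp had 279, 251 and 235 TPM and the phosphatase Acp5 had 127, 138 and 127 TPM, but the calcitonin receptor Calcr had at most 0.050 TPM and the integrin Itgb3 had 0.37, 0.39 and 0.41 TPM.

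Of the 14 genes of granulocyte precursors, 9 had a mean TPM of at least 1 (all protein-coding genes: 49.8%) and 2 had at least 10 (all: 32.7%). Mpo, the myeloperoxidase of primary granules, had 0.97, 2.05 and 1.67 TPM, and the elastase Elane had 0.36, 0.42 and 0.21 TPM. The secondary granule genes Ngp, Camp and Ltf had means of 7.27, 3.11 and 2.79 TPM. Mmp8, the neutrophil collagenase, stood apart with 81.6, 74 and 73.1 TPM. The lowest values rest on few reads, such as 3.0, 4.0 and 2.0 expected counts for Elane.

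The list of mature neutrophils was split. The alarmin subunit S100a8 had 254, 233 and 247 TPM and its partner S100a9 had 129, 127 and 128 TPM, and S100a8 stood at 1.91 ± 0.066 (SD, n = 3) times S100a9. Wfdc21, a secreted protein, had 1146, 1133 and 1109.9 TPM and made up 66.4% of the summed level of the list. The decoy receptor Il1r2 had 86.6, 85.5 and 84.4 TPM. The defining genes were far lower: Ly6g had 0.73, 0.22 and 0.34 TPM, the chemokine receptor Cxcr2 had 0.77, 0.48 and 0.58 TPM, and Csf3r, the receptor for G-CSF, had 7.87, 7.99 and 7.13 TPM. Csf1r was 45.8 ± 2.14 (SD, n = 3) times as high as Csf3r, although it overlaps Hmgxb3 on the opposite strand. The list as a whole summed to 1729.6, 1695 and 1683 TPM, and the part that neutrophils play in it was not tested.

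Of the 8 eosinophil genes, 3 had a mean TPM of at least 1 (all protein-coding genes: 49.8%). At the floor were 3 of the 8, near the share of all protein-coding genes (40.7%). Epx, the eosinophil peroxidase, had at most 0.10 TPM, Prg3 had no count, and Prg2 had 2.09, 1.97 and 2.1 TPM. The highest of the list was Siglecf, which the alveolar macrophage list also holds. Of 13 basophil and mast cell genes, 8 were at the floor (all protein-coding genes: 40.7%), and 6 of them had no count in any library. These included Fcer1a, the alpha chain of the high-affinity IgE receptor, and the proteases Tpsb2, Cma1 and Mcpt4. The basophil protease Mcpt8 had 0.15, 0.13 and 0.22 TPM.

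Of 19 progenitor genes, 8 had a mean TPM of at least 1 (all protein-coding genes: 49.8%), 3 had at least 10 (all: 32.7%) and 5 were at the floor (all: 40.7%). Kit, the receptor for stem cell factor, had 3.43, 3.05 and 3.51 TPM, Cd34 had 1.0, 1.6 and 1.12 TPM and Myb, a transcription factor of immature blood cells, had 0.47, 0.51 and 0.26 TPM. The transcription factor Mecom had no count, and Hlf, Erg and Hoxa9 were at the floor as well. The highest were Procr, a receptor for protein C, with 52, 44.8 and 43.7 TPM, and Lmo2, with 27.4, 23.7 and 23.1 TPM. Neither is confined to progenitors, and which cells carried them was not tested.

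Genes of other marrow lineages were at the floor for 11 of 15 in the erythroid and megakaryocyte list, 12 of 16 in that of T, NK and innate lymphoid cells, 5 of 12 in that of B cells and 6 of 12 in that of stroma and endothelium. Over all protein-coding genes the share was 40.7%, so the B cell list lay near it and the stromal list not far above it. In the first list, Klf1 and both alpha-globin genes were at the floor, and the genes above 10 TPM were the chemokines Pf4 (149, 149 and 142 TPM) and Ppbp (39.9, 35.8 and 36.8 TPM). The platelet genes Gp9 and Itga2b were near 0, with means of 0.17 and 0.62 TPM. Among B cell genes, Cd79a and Pax5 had means of 0.23 and 0.023 TPM, while Blnk, an adaptor that myeloid cells also use, had 43.4, 37.9 and 39.9 TPM. The T cell genes Cd3e, Trac and Cd8b1 had no count, but Il7r, the receptor for IL-7, reached 77, 77.4 and 90.4 TPM. In the stromal list, Col1a1, Col3a1 and Dcn had no count and Pecam1 had 1.04, 0.92 and 0.96 TPM, whereas Vwf, the von Willebrand factor of endothelium and platelets, had 30.4, 38.3 and 40.0 TPM from 1274, 1700.0 and 1641 expected counts. Cdh5 and Kdr, which mark endothelium, had at most 0.28 TPM. The part of these other cell types in the RNA was not tested.

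**Figure D2:**
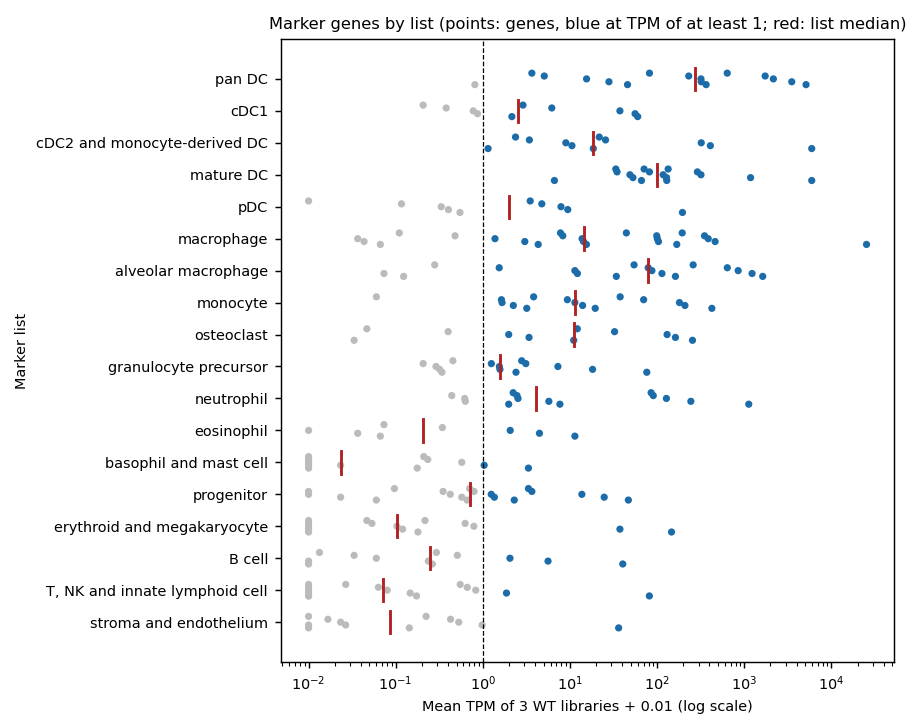
Mean TPM over the 3 WT libraries, with 0.01 added and on a log scale, of each gene of 18 marker lists, in blue at a TPM of at least 1 (dashed line) and in grey below it, with the list median in red. Medians are highest for the lists of dendritic cells in general (275 TPM) and of mature dendritic cells (99.7 TPM), and lowest for basophil and mast cell genes (0.013 TPM). The first of these lists holds Cd74 and MHC class II chains, which are not confined to dendritic cells.

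Of the 17 genes of the GM-CSF pathway, 15 had a mean TPM of at least 1 (all protein-coding genes: 49.8%). The beta chain Csf2rb lies on chromosome 15 from 78325752 to 78353847 and stood at 1129 ± 144 TPM (SD, n = 3). The alpha chain Csf2ra, which gives the receptor its specificity, lies on chromosome 19 from 61223957 to 61228429 and had 359, 426 and 356 TPM, so the beta chain was 2.98 ± 0.40 (SD, n = 3) times as high. Mice carry a second beta chain, Csf2rb2, which serves IL-3 alone. It had 312, 326 and 324 TPM and is 92.2% identical to Csf2rb over 4619 aligned transcript bases, so that some reads could be assigned to either. The sum of both beta chains was 1274, 1529 and 1545 TPM, lowest in replicate 1 like Csf2rb alone.

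Downstream of the receptor, Jak2 had 129, 114 and 125 TPM and stood at 1.87 ± 0.062 (SD, n = 3) times Jak1. Stat5a had 48.1, 56.3 and 52.9 TPM and Stat5b had 22.1, 21.3 and 23 TPM, a ratio of 2.37 ± 0.24. Stat5a overlaps Stat3 on the opposite strand. Among known targets of STAT5, the kinase Pim1 had 157, 154 and 144 TPM, the inhibitor Socs2 had 35.3, 33.8 and 31.7 TPM and the inhibitor Cish had 17.3, 23.2 and 23.6 TPM, with a CV of 16.5% in TPM and 6.37% in CPM. Other inhibitors of cytokine signalling were lower, with 14.1, 12.7 and 13.3 TPM for Socs3 and 1.16, 0.89 and 1.1 TPM for Socs1. The gene for GM-CSF itself, Csf2, had 0.96, 0.98 and 0.14 TPM, and Il3 had no count.

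The receptors of the cells were taken from 4 lists, 118 genes in all. A mean TPM of at least 1 was found for 93 (all protein-coding genes: 49.8%). At least 100 was reached by 31 (all: 5.15%), and 12 were at the floor (all: 40.7%). The receptor of highest level was Clec4n, which encodes dectin-2, a lectin that binds fungal mannans. It lies on chromosome 6 from 123229843 to 123247021 and had 2729, 2756 and 2928 TPM. Csf2rb and Fcer1g, the gamma chain through which dectin-2 and the Fc receptors signal, came next and overlapped in range, and Fcer1g had 955, 991 and 926 TPM. Itgb2, the integrin chain CD18 that pairs with CD11b and CD11c, had 692, 787 and 749 TPM, and Clec7a, which encodes the beta-glucan receptor dectin-1, had 649, 578 and 607 TPM. From the sixth to the tenth place, Fcgr2b, Csf2ra, Itgax, Csf1r and Clec4d each overlapped their neighbour, so their order was not settled by these libraries.

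**Figure D3:**
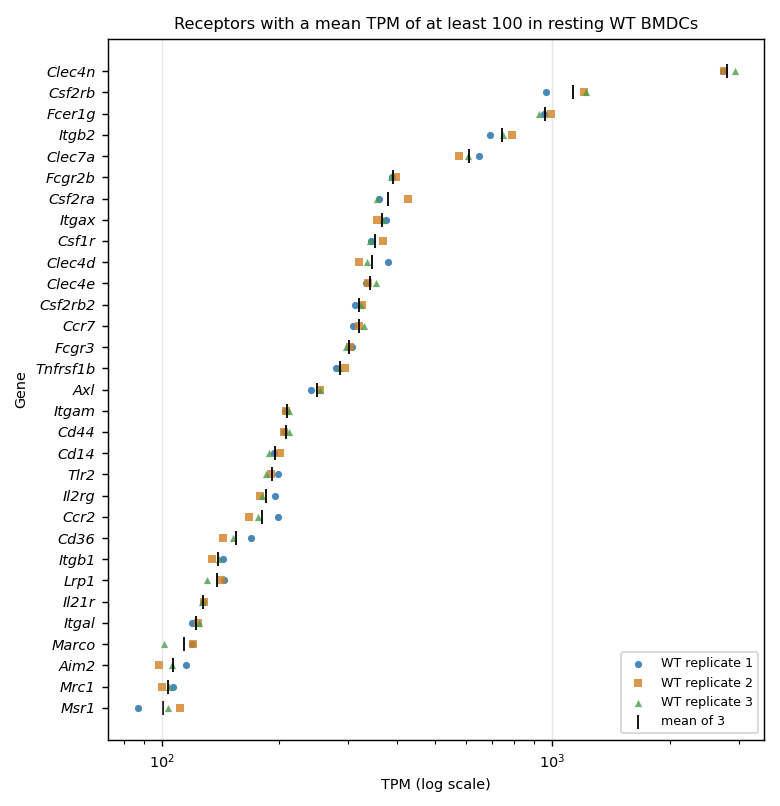
TPM (log scale) of the 31 receptor genes with a mean of at least 100, in WT replicates 1, 2 and 3, with the mean as a bar. Clec4n stands alone at the top, and the replicates of Fcgr2b, Csf2ra, Itgax, Csf1r and Clec4d run into one another.

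Receptors for cytokines other than the colony-stimulating factors were led by Tnfrsf1b, a receptor for TNF. It had 279, 294 and 284 TPM, 3.21 ± 0.11 (SD, n = 3) times Tnfrsf1a. Il2rg, the gamma chain shared by receptors for IL-4, IL-7 and IL-21, had 195, 179 and 181 TPM, and Il21r had 127, 128 and 127 TPM. The IL-10 receptor chains Il10ra and Il10rb had means of 79.3 and 62.9 TPM, and the interferon receptor chains Ifngr1 and Ifnar1 had means of 74.6 and 45.3 TPM. Among IL-1 receptors the decoy Il1r2 (85.5 TPM) far exceeded the signalling receptor Il1r1, with 1.17, 0.94 and 0.92 TPM. Osmr had no count, and Epor, Il5ra and Il17rb were at the floor.

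Sensors of microbes were nearly all present: 27 of 28 had a mean TPM of at least 1 (all protein-coding genes: 49.8%). Among Toll-like receptors, Tlr2, which recognises bacterial lipopeptides, was highest with 198, 191 and 185 TPM, followed by Tlr13, a sensor of bacterial ribosomal RNA, with 60.9, 58.1 and 62.4 TPM. Tlr4, the receptor for LPS, had 26.5, 21.6 and 26.1 TPM, while its partner Cd14 had 194, 201 and 188 TPM and Ly96 had 44.2, 41.7 and 40.8 TPM. The nucleic acid sensors Tlr7, Tlr8 and Tlr9 had means of 30.4, 29.3 and 12.2 TPM. Tlr3 was low (1.87, 2.8 and 1.77 TPM), and the flagellin receptor Tlr5 was the only one of the 12 below a mean of 1, with 0.28, 0.11 and 0.22 TPM. In the cytosol, Aim2, a sensor of DNA, had 116, 98.2 and 106 TPM, Tmem173, which encodes STING, had 92.1, 80.9 and 101 TPM, and Nlrp3 had 22.4, 23.9 and 25.3 TPM. The lectin Clec4e had 333, 338 and 354 TPM and Clec4d had 380.1, 320.0 and 335 TPM, and their ranges overlapped.

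Of 24 chemokine receptors, 7 had a mean TPM of at least 1 (all protein-coding genes: 49.8%). Ccr7 was highest and stood at 1.78 ± 0.20 (SD, n = 3) times Ccr2, the receptor of monocytes. Cxcr4, which holds cells in the marrow, had 73, 77.5 and 78.2 TPM, and the inflammatory receptor Ccr1 had 68.3, 63.1 and 65.8 TPM. The fractalkine receptor Cx3cr1, which overlaps other expressed genes, had 9.92, 9.69 and 8.4 TPM. Ccr4, the receptor for the abundant CCL17 and CCL22, had 0.28, 0.19 and 0.16 TPM.

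The receptors for antibody, debris and adhesion were present with 1 exception, the receptor kinase Tyro3 (0.54, 0.49 and 0.64 TPM). The inhibitory Fc receptor Fcgr2b had 389, 398 and 387 TPM and the activating Fcgr3 had 307, 303 and 296 TPM, whereas Fcgr4 had 3.79, 5.28 and 4.56 TPM. Fcgr3 was 71.8 ± 13.7 (SD, n = 3) times as high as Fcgr1. Axl, a receptor for apoptotic cells, had 241, 255 and 254 TPM, above its relative Mertk in every library. The scavenger receptor Cd36 had 169, 144 and 152 TPM and its like Msr1 had 87, 112 and 104 TPM. In TPM, Cd36 was highest and Msr1 lowest in replicate 1. The expected counts of Msr1, 2625, 2610 and 2702, did not differ in that way. Its CV was 12.5% in TPM and 5.58% in CPM, and its effective length was 2701, 1864 and 2128 bases. Itgal and Itgb7, integrin chains of leukocyte traffic, had means of 123 and 49.5 TPM.

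Of 32 transcription factors of blood lineages, 28 had a mean TPM of at least 1 (all protein-coding genes: 49.8%). Spi1, which encodes PU.1, the factor on which myeloid cells depend, lies on chromosome 2 from 91082390 to 91115756 and had 559.8, 576 and 575 TPM. Irf5, a factor of inflammatory macrophages, had 242, 219 and 212 TPM, and the NF-κB subunit Relb had 83.5, 82.9 and 79.1 TPM. Cebpb had 44.2, 39.2 and 35 TPM and Cebpa had 37.3, 39.2 and 37.2 TPM, whereas Cebpe, needed for granulocytes, had 2.5, 1.73 and 2.95 TPM. Ctcf, the chromatin factor that the study deletes elsewhere, had 37, 33.5 and 34.8 TPM in these controls. Gata1 had no count, and the means of Gata2, Gata3 and Gfi1 were at most 0.56 TPM. Gfi1b, a repressor known from erythroid and megakaryocytic cells, was also present with 13.7, 11 and 13 TPM.

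Several inflammatory mediators were abundant without LPS. Among chemokines, Ccl5 had 889, 942 and 894 TPM, Ccl9 had 692, 576 and 567 TPM and Cxcl2, which attracts neutrophils, had 595, 564 and 521 TPM. The matrix protein and cytokine osteopontin (Spp1) had 528, 498 and 494 TPM. Acod1, which makes itaconate, had 244, 239 and 236 TPM, and Tnf had 171, 166 and 164 TPM. Il1b had 149, 143 and 139.7 TPM, while its antagonist Il1rn was 1.92 ± 0.070 (SD, n = 3) times as high. Cxcl3 and Cxcl1 were both highest in replicate 1, with 229.6, 179 and 156 TPM and 79.3, 67.4 and 59.9 TPM, and Cxcl10, an interferon-induced gene, was lowest there, with 139.9, 167 and 172 TPM.

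Other mediators were low. Il6 had 7.21, 8.06 and 6.57 TPM and Il23a, which pairs with Il12b to form IL-23, had 13.2, 9.64 and 8.95 TPM. Il12a, Il10 and Nos2, which encodes the inducible nitric oxide synthase, had means of 0.20, 0.26 and 0.55 TPM. Ifnb1, which encodes interferon beta, had 0.35, 0.61 and 0.77 TPM. Ptgs2, the inducible prostaglandin synthase, had 4.18, 4.3 and 3.99 TPM. In all, 31 of 40 mediators had a mean TPM of at least 1 (all protein-coding genes: 49.8%) and 15 had at least 100 (all: 5.15%).

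**Figure D4:**
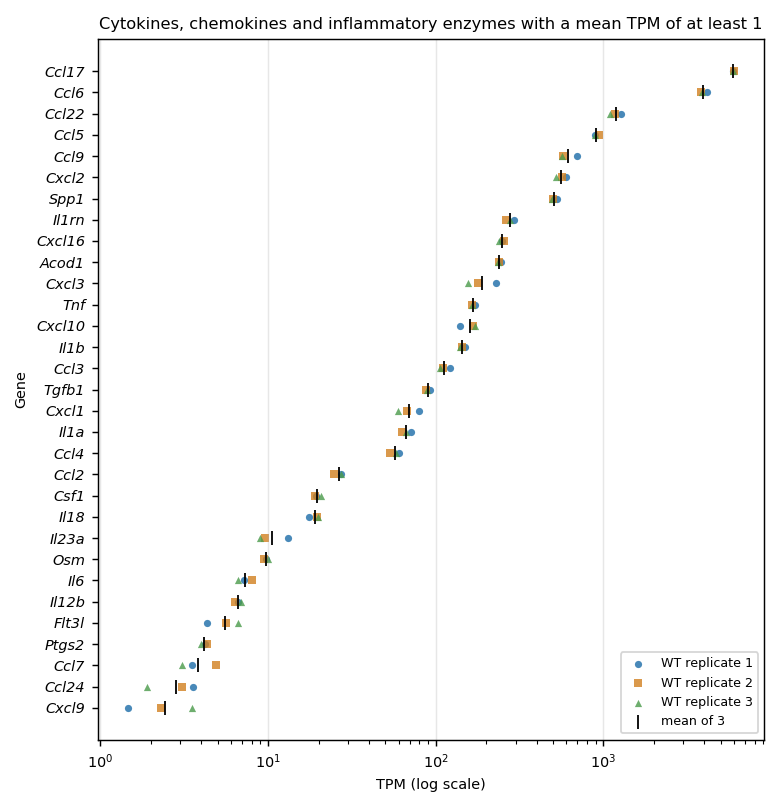
TPM (log scale) of the 31 cytokines, chemokines and inflammatory enzymes with a mean of at least 1, in WT replicates 1, 2 and 3, with the mean as a bar. Levels run from Ccl17 (mean 5965 TPM) and Ccl6 (mean 3950 TPM) down to Cxcl9 (mean 2.42 TPM).

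Genes of the cell cycle were expressed in these libraries. Which cells carried their RNA, and whether those cells were dividing, was not tested. All 18 cell cycle genes were detected, and 17 had a mean TPM of at least 10 (all protein-coding genes: 32.7%). Pcna, the clamp of DNA polymerase, had 246, 234 and 229 TPM, the mitotic kinase Cdk1 had 173, 153 and 156 TPM, and Mki67, the usual marker of cycling cells, had 58.9, 59.1 and 59.8 TPM. Cdc6, which licenses replication, was the lowest with 3.9, 3.45 and 3.25 TPM. Replication-dependent histone genes, whose RNAs lack a poly(A) tail, took only 0.017% of TPM.

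On how the libraries were made, the labels name removal of ribosomal RNA and the methods name poly(A) selection. Other RNAs without a poly(A) tail were present at unequal levels. Rn7sk, the 7SK RNA, had 166, 159.5 and 184 TPM, and Rpph1, the RNA of RNase P, had 56, 60.1 and 54 TPM. The 2 copies of 7SL RNA, Rn7s1 and Rn7s2, are identical over 300 bases. Rn7s1 was given 313, 1.27 and 423 TPM and Rn7s2 313, 645 and 423 TPM, with a sum of 626, 647 and 846 TPM. Only the sum can be read, as replicate 2 shows. The TPM values are raised by short effective lengths, with means of 91.6 bases for each 7SL copy and 117 for 7SK. All 12 matched RNAs of this list took 0.054% of the counts. Annotated rRNA genes took 0.13%, 0.17% and 0.28% of the counts, highest in replicate 3. Among long noncoding RNAs, Neat1 had 779, 732 and 704 TPM and Malat1 had 322, 280.4 and 315 TPM. Which selection was used was not tested.

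All 3 libraries expressed Xist, the RNA that silences an X chromosome in female cells, with 124, 117 and 113 TPM, and none had a count for the Y-linked genes Ddx3y, Uty, Kdm5d or Eif2s3y. Reference genes differed in their spread. Rpl7, the reference of the study's qPCR, had 1124, 1111 and 1091 TPM, a CV of 1.48%. Actb had 3876, 4388 and 3852 TPM (7.5%) and Gapdh had 3074, 3724 and 3473 TPM (9.59%). Tbp, the TATA-binding protein, had the largest CV of TPM of the 12 reference genes, 15%, with 23.2, 17.8 and 18.3 TPM. In CPM its CV was 6.38%, below the 9.34% of Gapdh, and its effective length was 1471, 1701 and 1656 bases.

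At the other end of the range, 38998 genes (70.5%) were at the floor, and 33035 of them had no count in any library. These included 9032 of 9938 processed pseudogenes and 5183 of 5621 lincRNAs. Of protein-coding genes, 8904 (40.7%) were at the floor. A count of 0 limits the level and does not show absence, since a rare cell type could carry the gene.

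Families known from other tissues were largely at the floor. Of 1136 olfactory receptor genes, 1110 were at the floor (97.7%), as were 324 of 330 vomeronasal receptors and all 64 defensins, 57 keratin-associated proteins, 22 major urinary proteins, 25 members of the prolactin family and 13 alpha interferons. Of 39 Hox genes, 36 were at the floor, and Hoxb4 was the only one with a mean TPM of at least 1 (2.69, 2.8 and 3.09 TPM). An exception stood out in the largest family. Olfr111 had 10.8, 12.3 and 11.5 TPM from 280.4, 358 and 328 expected counts, and it lies on chromosome 17 from 37508030 to 37532449, beside Olfr110 with 2.41, 1.59 and 2.18 TPM. Collagens and crystallins were less uniform, with 29 of 44 and 14 of 19 genes at the floor, and the crystallin family gene Crybg1 had a mean of 21.7 TPM. In 2 families of endosomal function, 5 of 18 cathepsins (27.8%) and 7 of 59 Rab GTPases (11.9%) were at the floor. The share of all protein-coding genes was 40.7%. The cathepsins took 0.81% ± 0.01 (SD, n = 3) of TPM, led by Ctss, Ctsd (1977, 2137 and 1989.8 TPM) and Ctsz (909, 979 and 914 TPM).

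The replicates differed little. Among 7315 genes with a mean TPM of at least 10 and a mean expected count of at least 100, the median CV was 5.95%. Counting error was taken from the mean expected count of each gene, as its square root in percent of that count. Its median over these genes was 3.55%. This is not the median CV that counting alone would give in 3 libraries, which was not computed. The 234 members of the gene lists in this range had a median CV of 5.27%. The steadiest genes included Tufm, a mitochondrial elongation factor (46, 46 and 46.1 TPM), Rps13 (1493, 1495 and 1495 TPM) and Rac1, a GTPase of the cytoskeleton (308, 308 and 307 TPM). Their CVs of TPM lay below counting error, and they were picked as the smallest of 7315 genes. In CPM the CVs of Tufm, Rps13 and Rac1 were 3.22%, 3.47% and 2.84%. Counting error was 3.57%, 1.23% and 1.49%, so in CPM only Tufm lay below it.

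Only 168 genes (2.3%) had a CV above 20%, and of these 78 had a CV under 10% in CPM. The estimated length moved with many of them: in 115 of the 168, the effective length varied by more than 10%. Nbdy, for example, had 28.3, 85.2 and 26.4 TPM but 177, 212 and 189 expected counts, and its effective length was 198 bases in replicate 2 and 559.6 in replicate 1. Among the listed genes, Wdfy4, which cDC1 need for cross-presentation, had 27.9, 40.0 and 44.5 TPM, lowest in replicate 1, with CVs of 23% in TPM and 4.7% in CPM. Il3ra, the alpha chain of the IL-3 receptor, had 11.6, 17.8 and 10.6 TPM, highest in replicate 2, and a CV of 10.4% in CPM. For Il23a, both measures were near 20% (21.3% and 19.3%).

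The 10 largest CVs of TPM included the pseudogenes Gm8226 (0, 0.10 and 47.3 TPM) and Gm10132 (0, 24.4 and 102 TPM), as well as Rn7s1 and mt-Co2. AY036118, a noncoding RNA, had 509.7, 680.1 and 1455 TPM, and CT010467.1, an annotated rRNA, had 971, 1235 and 2023 TPM. Lars2, a mitochondrial tRNA ligase gene, had 102, 111 and 159.7 TPM. These last 3 RNAs were highest in replicate 3, where the share of annotated rRNA was also highest. CT010467.1 is itself one of the annotated rRNA genes, with 17450, 25076 and 40393 expected counts. AY036118 lies within it on the same strand, so these 2 genes and that share are not separate observations.

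**Figure D5:**
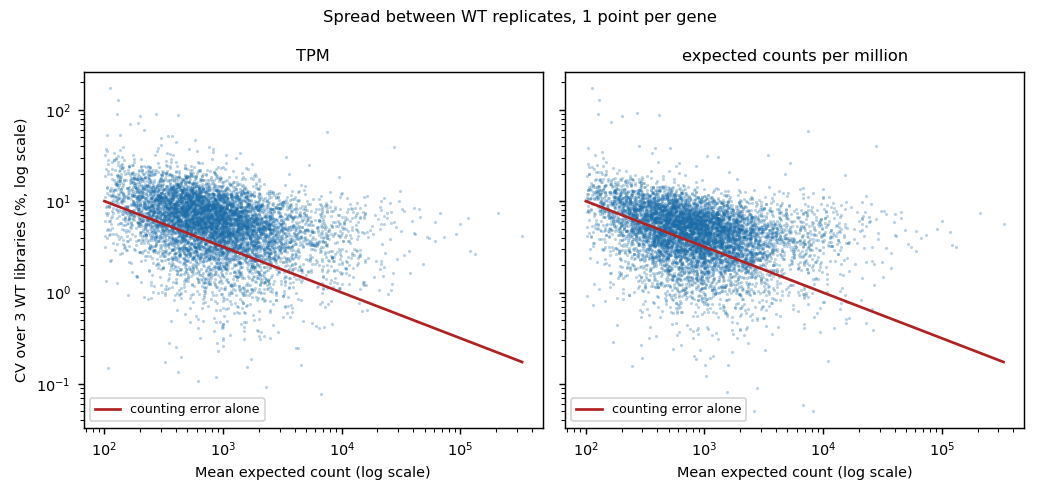
CV over the 3 WT libraries (percent, log scale) against the mean expected count (log scale), 1 point for each of 7315 genes, for TPM on the left and for CPM on the right; the red line is counting error alone. The cloud of TPM values lies higher (median 5.95%) than that of CPM (median 4.67%).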

How the data were processed

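The 3 WT libraries were assigned to their group by their labels. Per the methods and the submitters' processing notes, the authors used Trim Galore for adapters and STAR for alignment against mm10, and quantified genes with RSEM on a GENCODE annotation, whose release is not given in the sources used here. The notes name STAR 2.5.1, and the paper's reporting summary another version. They deposited an RSEM expected count (an estimated count, not normalized), a TPM (scaled to 1 common total per library) and an effective length for each of 55335 genes; whether RSEM used the strand is not given in the sources used here. Antisense, overlapping and near-identical genes are therefore uncertain. Of the gene identifiers, 54587 matched GENCODE M21, on mm10, with their version and 55154 without it, for position and type.

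TPM was averaged over the 3 libraries with its SD; no test was run, as there was no contrast. Total expected counts were 13058792 to 14518230. The floor was 3 counts in every library, and this limit covers counting error only. The 30 most abundant genes, the members of 30 gene lists (517 of 519 entries matched, Mb21d1 as Cgas), the 10 largest and smallest CVs and the leading receptors could be named. Members and lists were chosen with earlier results of these data known, and the gene families by symbol, the promoters, and Lyz1, mt-Co3, Mmp12, Ctss, Ctsd, Ctsz, CT010467.1, Olfr110, Olfr111 and Hoxb4 after seeing the values. Identity was computed by local alignment of the longest GENCODE transcripts with Biopython 1.88, on Python 3.11.15, numpy 2.4.6 and pandas 2.3.3; plots used matplotlib 3.10.9. The CV of CPM was tried on simulated counts without effective lengths, which does not cover the CV of TPM. Alternatives were other limits of TPM and counts (0.5, 5 and 10), counts in place of TPM, pseudocounts of 1 and 0.1, median-ratio scaling, totals without mitochondrial genes, and leaving out each replicate. A few list members are counted in the lists but not reported here by name.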

Additional observations from a re-analysis of the deposited data

How the results depend on the processing

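No paired analysis was possible because a single group was described and no groups were compared. The numbers of genes detected and at the floor, the overlap of the rankings, and the detected members of the dendritic cell and macrophage lists stayed within 1.5 times under every alternative run. At a TPM of at least 5, the detected members fell to 3 for granulocyte precursors, 7 for neutrophils and 3 for progenitors. The 100 most abundant genes held 24.5% of expected counts, 41.0% of TPM without mitochondrial genes, and 38.7% when unprocessed pseudogenes and effective lengths under 100 bases were also left out (chosen after seeing the data). The median CV of genes with a mean TPM of at least 1 was 7.93%. It was 6.09% at a mean TPM of at least 10, 10.6% with 1 count in each library as the only filter, 6.18% in CPM, 7.16% from the SD of log2(TPM + 1), 6.24% for genes of steady effective length (also added later), and 5.71% to 6.94% with a replicate left out. In expected counts in place of TPM, the summed lists were 1.39% against 1.46% for dendritic cells, 0.017% against 0.012% for granulocyte precursors, 0.045% against 0.17% for neutrophils and 0.013% against 0.010% for progenitors. Without their highest member, these shares of TPM were 0.95%, 0.00396%, 0.057% and 0.00539%, and for macrophages 0.20% against 2.74%. With mitochondrial genes out of the total, they were 1.58% for dendritic cells, 2.96% for macrophages, 0.013% for granulocyte precursors, 0.18% for neutrophils and 0.011% for progenitors. The mean TPM of all 438 named genes above 0 moved by less than 1 SD when libraries were scaled by their median ratio. Leaving out 1 of 3 libraries cannot move a mean by 1 SD, so that check says nothing about these means. Depth limits the genes near the floor, and TPM of genes with a short or unsteady effective length is less reliable than their counts.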
